A study of Mus musculus with 12 samples.

Results

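The circadian clock genes described here are 10 named members, Arntl (also called Bmal1), Clock, Per1, Per2, Per3, Cry1, Nr1d1, Nr1d2, Dbp and Tef, out of 27179 gene identifiers counted. They were chosen by name for their place in the clock, and each was read as a level per animal and as a ratio of heavy over light polysomes. All 10 were found in the count tables and all 10 passed the filter on low counts, which left 10555 genes. The 12 libraries came from the livers of 6 male C57BL/6 mice, with a heavy and a light polysome library from each liver. Keto 1 and keto 2 were wild-type mice given a ketogenic diet for 24 h, S209A was a mouse homozygous for the Ser-to-Ala change at the phosphorylation site of eIF4E and fed chow, and chow 1, chow 2 and chow 3 were wild-type mice fed chow. The titles of chow 3 and S209A say fed, where those of chow 1 and chow 2 say chow. The S209A mouse carries the change in every cell from conception, so its liver is not a model of a change made in adult liver. No hour of collection was given in the labels, so no level below can be set against the time of day, and each animal was 1 liver sampled once.

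In the mammalian clock, the transcription factors ARNTL and CLOCK pair and switch on genes with E-box sequences, among them the Per and Cry genes, the nuclear receptors Nr1d1 and Nr1d2 (REV-ERB alpha and beta), and the PAR bZIP factors Dbp and Tef. PER and CRY proteins return to block ARNTL and CLOCK, and the REV-ERBs repress Arntl. In mouse liver the loop gives large daily swings in messenger level, with Dbp, Nr1d1, Nr1d2 and Tef high by day, the Per genes high later towards dusk, and Arntl and Cry1 high in the opposite part of the cycle, while Clock swings less.

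The promoter windows in which the 3 classical clock motifs were found are shown because the loop is wired through them. Windows run from 250 bases before to 50 bases after a gene's start in the RefSeq annotation of GRCm38.p6, 9 of the 10 members have at least 1 window, and Per2 has none in the table used. The motifs searched on both strands were the E-box CACGTG, bound by ARNTL and CLOCK, the D-box TTATGNAA, bound by DBP and TEF, and the element TAGGTCA, bound by RORs and REV-ERBs. Each sequence reads 5′ to 3′ on the gene's strand, and capitals mark the motif match.
Arntl, chr7:113207261-113207560, plus strand: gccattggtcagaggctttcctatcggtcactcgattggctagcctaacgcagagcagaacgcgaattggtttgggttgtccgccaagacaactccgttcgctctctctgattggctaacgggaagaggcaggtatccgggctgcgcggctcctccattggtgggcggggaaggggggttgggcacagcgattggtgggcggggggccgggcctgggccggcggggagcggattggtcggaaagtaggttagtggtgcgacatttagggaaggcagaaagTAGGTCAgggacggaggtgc
Cry1, chr10:85185005-85185304, minus strand: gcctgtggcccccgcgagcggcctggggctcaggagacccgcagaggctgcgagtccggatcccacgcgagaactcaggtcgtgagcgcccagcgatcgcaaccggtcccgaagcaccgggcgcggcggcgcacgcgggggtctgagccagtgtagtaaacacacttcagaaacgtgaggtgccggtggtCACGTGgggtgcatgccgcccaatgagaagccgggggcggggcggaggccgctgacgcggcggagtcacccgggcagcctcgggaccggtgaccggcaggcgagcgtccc
Per1, chr11:69098699-69098998, plus strand: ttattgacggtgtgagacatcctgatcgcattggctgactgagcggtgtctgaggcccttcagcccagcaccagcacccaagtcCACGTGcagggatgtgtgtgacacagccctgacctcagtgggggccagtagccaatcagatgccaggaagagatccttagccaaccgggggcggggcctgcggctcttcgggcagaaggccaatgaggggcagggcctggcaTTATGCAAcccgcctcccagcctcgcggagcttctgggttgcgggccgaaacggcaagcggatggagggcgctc
Per3, chr4:151044616-151044915, minus strand: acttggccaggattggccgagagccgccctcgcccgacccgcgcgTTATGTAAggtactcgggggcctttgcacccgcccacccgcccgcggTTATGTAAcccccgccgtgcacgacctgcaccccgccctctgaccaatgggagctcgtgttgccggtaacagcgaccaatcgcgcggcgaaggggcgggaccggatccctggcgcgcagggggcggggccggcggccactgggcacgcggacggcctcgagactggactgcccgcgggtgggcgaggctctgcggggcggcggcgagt
Tef, chr15:81802423-81802722, plus strand: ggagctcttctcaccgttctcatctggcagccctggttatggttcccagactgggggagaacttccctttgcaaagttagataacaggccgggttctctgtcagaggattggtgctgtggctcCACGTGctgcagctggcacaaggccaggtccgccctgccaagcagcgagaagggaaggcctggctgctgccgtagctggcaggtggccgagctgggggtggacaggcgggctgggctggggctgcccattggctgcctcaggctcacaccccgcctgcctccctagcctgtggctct
The E-box lies in the windows of Per1, Cry1 and Tef, the D-box in those of Per1 and Per3, with 2 matches in Per3, and the REV-ERB element in that of Arntl just after its start. A second window of Tef also holds the E-box and is not shown. Of all 32851 windows in the table, 7.15% hold the E-box, 3.38% the D-box and 2.61% the REV-ERB element. Counted by gene, with a match in any of its windows, the shares are 8.09%, 3.99% and 2.97% of 27025 genes. No match in the windows of Clock, Nr1d1, Nr1d2 and Dbp says only that these letters are not in those windows.

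Library depth and processing differed between animals in ways that touch every level below. Total counts ran from 3341046 to 13263355 per library, of which nuclear protein-coding genes held 356666 to 1777315 counts, or 4.09% to 39.3%. That share was 4.09% to 6.61% in the keto libraries and 6.53% to 22.2% in those of chow 1 and chow 2. In those of chow 3 and S209A it was 29.6% to 39.3%. Mitochondrial rRNA held 37.6% to 74.2% of the counts in keto, 12.9% to 58.2% in chow 1 and chow 2, and 12.1% to 13.8% in chow 3 and S209A. The files of chow 1 and chow 2 name one aligner in their headers (Bowtie2), those of S209A and chow 3 another (HISAT2), and those of the keto animals none, so diet and processing cannot be told apart, whereas chow 1 and chow 2 share theirs. All 7 hepatocyte markers had counts in all 12 libraries, with a summed level per animal, in CPM (read counts scaled to library size), of 4659 to 5246 CPM in keto, 8907 in S209A and 5915 to 9249 in chow. Markers of other cell types varied with the animal. Erythroid markers summed to 30.3 CPM in keto 1, 74.6 in keto 2, 15.5 in S209A and 6.54 to 20.5 in chow. Kupffer cell markers summed to 45.8 to 50.4 CPM in keto, 64.8 in S209A, 63.5 in chow 1, 28.2 in chow 2 and 57.7 in chow 3, and endothelial markers to 97.8 to 116 in keto, 91.7 in S209A and 69 to 126 in chow. Stellate cell markers summed to 23 to 33.6 CPM in keto, 33.3 in S209A and 33.1 to 38.2 in chow. Cholangiocyte markers, none of which had counts in all libraries, summed to 1.6 to 1.95 CPM in keto, 10.3 in S209A, 11.4 in chow 1 and 3.6 to 3.83 in chow 2 and chow 3. Lymphocyte and pancreas markers summed to at most 0.868 and 1.47 CPM in any animal, and the part of these cells in the clock gene levels was not tested. The clock runs in other liver cells too, and in these whole-liver libraries fewer cells of a type and less RNA per cell cannot be told apart. Counts of Nr1d1 may include reads of Thra and counts of Dbp reads of Sphk2, since these genes overlap and no source used here states whether the counting used strand.

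The activators of the loop were Arntl and Clock. On the scale used throughout for levels, CPM after scaling between libraries, Arntl had 0 in the heavy and 0 in the light library of keto 1, 3.67 and 2.12 in those of keto 2, 2.47 and 2.31 in those of S209A, 2.98 and 3.83 in those of chow 1, 0.145 and 2.01 in those of chow 2, and 0.437 and 0.468 in those of chow 3. Keto 1 was thus the animal in which Arntl was not detected, and chow 1 the animal in which its mean of both pools was highest. At the limit that 3 counts per library set for keto 1, a mean level of 0.522 CPM, Arntl was at least 5.55-fold higher in keto 2 and at least 6.52-fold higher in chow 1. Clock, the partner of ARNTL, had mean levels of 2.77 CPM in keto 1, 7.05 in keto 2, 4.47 in S209A, 7.85 in chow 1, 7.14 in chow 2 and 3.31 in chow 3. Keto 1 and chow 3 were the low animals for Clock, and the diets overlapped for both genes.

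Cry1, which encodes the strongest repressor of ARNTL and CLOCK, had mean levels of 0.539 CPM in keto 1, 1.62 in keto 2, 0.514 in S209A, 5.32 in chow 1, 0.863 in chow 2 and 1.22 in chow 3. Chow 1 stood above all the others, with 26 and 24 counts in its heavy and light library, while S209A had 0 counts in its heavy library and 8 in its light library. The REV-ERB gene Nr1d1 showed the opposite order at chow 1. It had 6.13 CPM in the heavy and 10.5 in the light library of keto 1, 7.15 and 6.72 in those of keto 2, 15.1 and 10.3 in those of S209A, 0.993 and 0 in those of chow 1, 15.9 and 11.8 in those of chow 2, and 5.1 and 9.66 in those of chow 3. Only 4 counts of Nr1d1 were found in chow 1, and both keto animals lay between chow 1 and chow 2. Nr1d2, its paralogue, had mean levels of 10.2 CPM in keto 1, 6.13 in keto 2, 3.83 in S209A, 1.39 in chow 1, 7.43 in chow 2 and 6.94 in chow 3, again with chow 1 the lowest.

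Among the Per genes, which encode the partners of CRY in repression, Per1 had mean levels of 19.6 CPM in keto 1, 10.5 in keto 2, 6.81 in S209A, 3.53 in chow 1, 14.4 in chow 2 and 19.4 in chow 3. Per2 had 27.5 CPM in the heavy and 15.1 in the light library of keto 1, 1.35 and 1.77 in those of keto 2, 5.35 and 3.08 in those of S209A, 6.46 and 3.31 in those of chow 1, 12.5 and 14.5 in those of chow 2, and 39.3 and 24.6 in those of chow 3. The keto animals lay far apart for Per2, with keto 1 second to chow 3 and keto 2 the lowest of the 6. Per3 had mean levels of 6.44 CPM in keto 1, 1.35 in keto 2, 2.16 in S209A, 0.609 in chow 1, 9.52 in chow 2 and 12.8 in chow 3. For Per1 and Per3 chow 1 was lowest, and for all 3 Per genes chow 3 was the highest chow animal.

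The output factors Dbp and Tef bind the D-box and pass the rhythm on to metabolic genes. Dbp had 16.2 CPM in the heavy and 24.8 in the light library of keto 1, 6.76 and 7.78 in those of keto 2, 3.5 and 5.4 in those of S209A, 0.497 and 0 in those of chow 1, 13.9 and 16.7 in those of chow 2, and 6.05 and 14.3 in those of chow 3. Chow 1 had 2 counts of Dbp in both libraries together, against 212 in chow 2 and 266 in chow 3. Tef had mean levels of 40.1 CPM in keto 1, 15.6 in keto 2, 11.1 in S209A, 3.38 in chow 1, 33.3 in chow 2 and 18.9 in chow 3. For both outputs keto 1 was highest and chow 1 lowest. For Sphk2, the gene that overlaps Dbp, the heavy library of chow 1 held 17 counts and its light library 23. Chow 2 had 119 heavy and 62 light counts of Sphk2, whereas chow 3 had 56 heavy and 61 light counts. Thra, the gene that overlaps Nr1d1, had 3 heavy and 5 light counts for chow 1. Its heavy and light counts were 12 and 32 for chow 2, then 6 and 14 for chow 3. These are raw counts, and the libraries of chow 3 were the largest after scaling. What Sphk2 added to the Dbp values, or Thra to those of Nr1d1, was not tested.

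**Figure D1:**
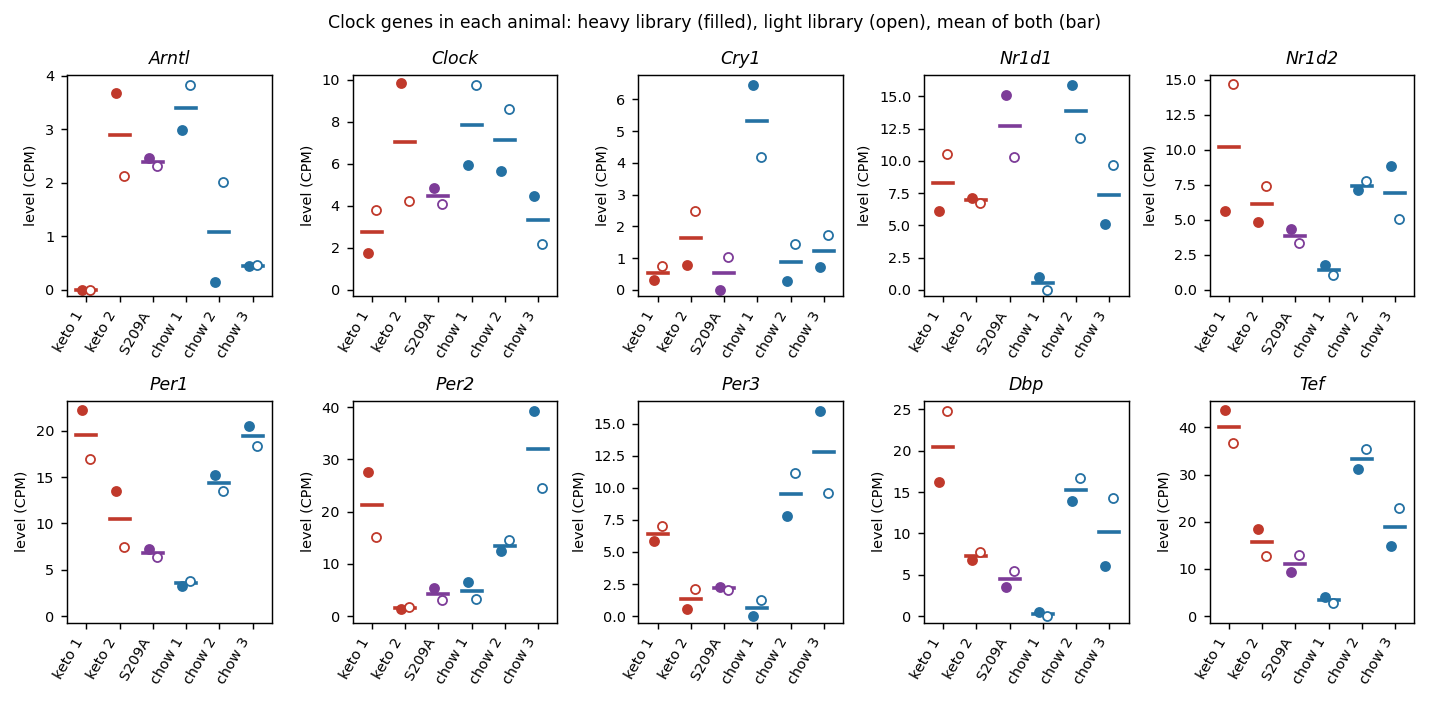
Level of each clock gene in CPM (vertical axis, linear, a separate scale for each gene) in each animal (horizontal axis). Filled points are heavy libraries, open points light libraries and bars the mean of both; chow 1 is the lowest animal for Per1, Per3, Nr1d1, Nr1d2, Dbp and Tef and the highest for Arntl, Clock and Cry1.

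Chow 1 was the lowest of the 6 animals for 6 of the 10 clock genes (Per1, Per3, Nr1d1, Nr1d2, Dbp and Tef), against 20.7% of all genes tested, and the highest for Arntl, Clock and Cry1, against 19%. Keto 1 was at the other end. It was the highest animal for Per1, Nr1d2, Dbp and Tef, against 18% of all genes, and the lowest for Arntl and Clock, against 14.4%. Keto 2 was lowest for Per2 (21.5% of all genes), S209A lowest for Cry1 (15.3%), chow 2 highest for Nr1d1 (13.5%) and chow 3 highest for Per2 and Per3 (15.1%).

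Whether the chow animals differed from each other by more than the heavy and light libraries of a liver was tested with edgeR's quasi-likelihood F test over all genes, with the pool as a term. The test was added after the data had been seen, and it compares these 3 livers, with the pools of 1 liver as its 2 measurements. Of the 10 clock genes, 6 were called at an adjusted p under 0.05 (Per1, Per2, Per3, Nr1d1, Dbp and Tef), where 5.11% of all 10555 genes were called. Dbp spanned 6.08 on the log2 scale between its lowest and highest chow animal (adjusted p = 3.69e-05). By the mean level of both pools chow 2 over chow 1 was 61.6-fold, and chow 1 had only 2 counts, so the ratio is loose. By counts summed over both pools it was 74.8-fold, with an exact 95% interval of 20.4 to 622 that covers counting error only. Nr1d1 spanned 4.95 (adjusted p = 0.000538), and chow 2 over chow 1 was 27.9-fold by the mean level of both pools, or 33.9-fold by summed counts, with an interval of 13 to 126. Tef spanned 3.31 (adjusted p = 0.000219) and Per3 4.36 (adjusted p = 0.00316), in each case with chow 1 at the low end.

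Per1 spanned 2.43 (adjusted p = 0.00853) and Per2 2.73 (adjusted p = 0.00253), with chow 3 at the high end of both. The test did not call Nr1d2 (2.43, adjusted p = 0.0822), Cry1 (3.17, adjusted p = 0.344), Arntl (2.85, adjusted p = 0.484) or Clock (1.25, adjusted p = 0.661), and Arntl and Cry1 had means of only 10.7 and 9.92 counts per library. The calls rest on chow 1. With chow 1 left out, 0 of the 10 were called in edgeR (1 at an unadjusted p under 0.05), where 3.52% of all genes were, and the spans between chow 2 and chow 3 were 0.44 for Per1, 1.18 for Per2, 0.46 for Per3, 0.93 for Nr1d1, 0.68 for Dbp and 0.82 for Tef. Between chow 1 and chow 2, which share their header, 4 of the 10 were called (Nr1d1, Dbp, Tef and Per3), where 1.08% of all genes were. limma-voom also called 6 of the 10 among the chow animals, where 5.84% of all genes were called.

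The median difference between the highest and lowest chow animal, on log2 of CPM plus a pseudocount of 0.5, was 2.46 for the clock genes, against 0.94 for all genes tested and 0.91 for the 7072 genes with a mean count in the same range. Clock had the smallest such difference of the 10, at 1.16, and Dbp the largest, at 4.48. Between the keto animals, the median absolute difference on the same scale was 1.26 for the clock genes and 0.50 for all genes.

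**Figure D2:**
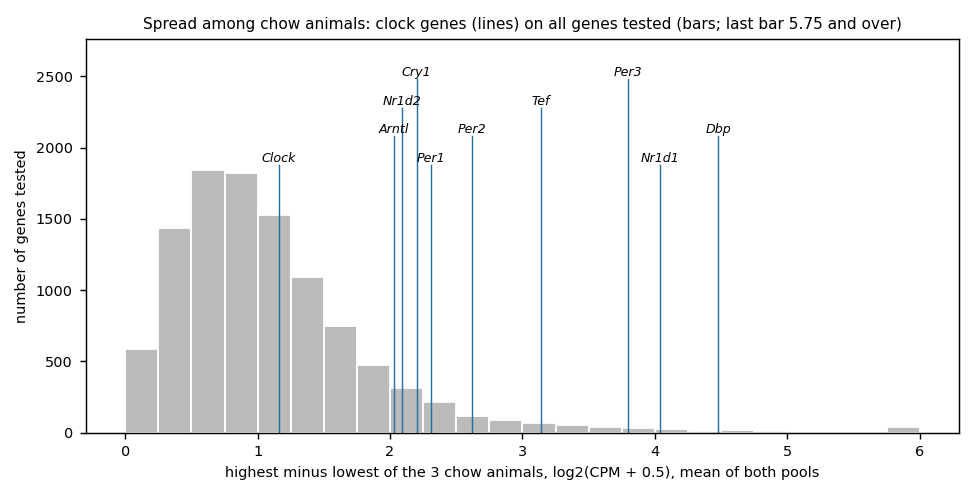
Number of genes tested (vertical axis, bars) by the difference between the highest and the lowest of the 3 chow animals in log2(CPM + 0.5), mean of both pools (horizontal axis). Lines mark the 10 clock genes, from Clock at 1.16 to Dbp at 4.48, against a median of 0.94 for all genes.

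Between keto 1 and keto 2, the same kind of test called Per2 (3.77 on the log2 scale, adjusted p = 0.0049), 1 of the 10 members, where 0.0189% of all genes were called. The call was lost with limma-voom (adjusted p = 0.423) and with a filter at a mean of 50 counts (adjusted p = 0.0562), with a log2 difference of 3.75 and 3.73 in those fits. The other 9 members were not called, among them Dbp (1.46, adjusted p = 0.906), Tef (1.35, adjusted p = 0.739) and Per3 (2.39, adjusted p = 0.724). Keto 1 was the higher animal for Per1, Per2, Per3, Nr1d1, Nr1d2, Dbp and Tef, and the lower for Arntl, Clock and Cry1. Nr1d1 differed least, by 0.26 on the log2 scale.

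The relation of the loop's opposing arms was read inside each library as a difference of log2(CPM + 0.5), which does not change with scaling other than through the pseudocount. Because gene lengths differ, the value 0 of such a difference has no meaning and only animals can be compared. Arntl minus Dbp, as the mean of both pools, was -5.36 in keto 1, -1.23 in keto 2, -0.75 in S209A, 2.46 in chow 1, -3.63 in chow 2 and -3.37 in chow 3. Chow 1 lay above the other 5 animals in both pools, at 1.80 in the heavy and 3.11 in the light library, where the next highest animal, S209A, had -0.43 and -1.07. Arntl minus Nr1d1 gave the same top animal, with -4.09 in keto 1, -1.17 in keto 2, -2.17 in S209A, 2.17 in chow 1, -3.48 in chow 2 and -2.99 in chow 3.

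For both differences keto 1, chow 2 and chow 3 were the 3 lowest animals, and keto 2 and S209A lay between them and chow 1. Values for keto 1 rest on the pseudocount, since it had 0 counts of Arntl, as do those of the light library of chow 1, with 0 counts of Dbp and Nr1d1. With a pseudocount of 2, Arntl minus Dbp was -3.46 in keto 1 and 1.27 in chow 1, and chow 1 was still the highest. Clock minus Per2 ordered the animals in another way, at -2.75 in keto 1, 1.77 in keto 2, 0.12 in S209A, 0.66 in chow 1, -0.90 in chow 2 and -3.12 in chow 3. Here keto 2 was highest and chow 3 and keto 1 were lowest. In each of the 3 differences, the span between keto 1 and keto 2 and the span among the chow animals overlapped, and no phase was assigned to a group.

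**Figure D3:**
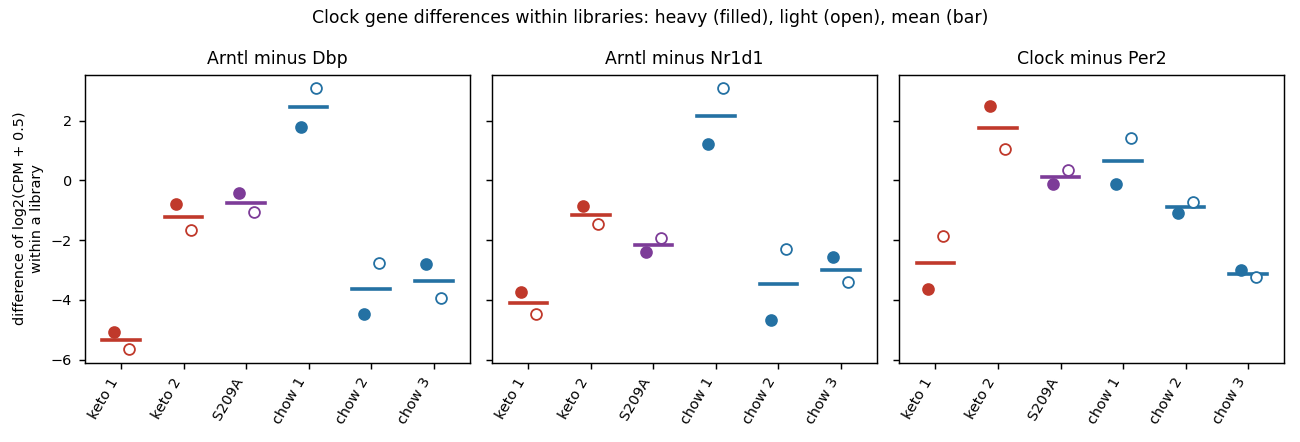
Difference of log2(CPM + 0.5) between 2 clock genes within a library (vertical axis) in each animal (horizontal axis), for Arntl minus Dbp, Arntl minus Nr1d1 and Clock minus Per2; filled points are heavy libraries, open points light libraries and bars the mean of both. Chow 1 is highest in the first 2 panels, at 2.46 and 2.17, and keto 2 in the third, at 1.77.

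The question of the diet, keto over chow, was tested on the counts of both pools summed per animal, with all 6 animals in the fit. None of the 10 clock genes was called (0 of 10 in edgeR, DESeq2 and limma-voom, and 0 of 10 at an unadjusted p under 0.05 in each). Of all 10555 genes, edgeR called 0%, with 929 at an unadjusted p under 0.05, DESeq2 called 16 (0.152%) and limma-voom 0. The clock genes split evenly, 5 above 0 and 5 below, with a median log2 estimate of 0.01 against -0.06 for all genes. Dbp averaged 13.9 ± 9.35 CPM in keto (SD, n = 2) and 8.57 ± 7.65 CPM in chow (SD, n = 3), a log2 estimate of 0.69 with a 95% interval of -1.38 to 2.76 (adjusted p = 0.88). Cry1 had the estimate farthest from 0, with 1.08 ± 0.767 CPM in keto and 2.47 ± 2.47 CPM in chow, at -1.31 with an interval of -3.25 to 0.64 (adjusted p = 0.704).

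The intervals are wide and do not show that the diets were alike. The estimate was 0.64 for Tef (interval -0.88 to 2.17), 0.57 for Nr1d2 (-0.72 to 1.86), 0.34 for Per1 (-0.88 to 1.57), 0.08 for Nr1d1 (-1.75 to 1.92), -0.07 for Arntl (-2.75 to 2.62), -0.22 for Clock (-1.38 to 0.95), -0.49 for Per2 (-2.45 to 1.47) and -1.01 for Per3 (-3.03 to 1.02). No clock gene had both keto animals above all 3 chow animals (14% of all genes did) or both below (15.8% did). The sign of the estimate turned without chow 1 for Arntl (1.03), Clock (0.03), Per1 (-0.09) and Nr1d1 (-0.46), and without keto 1 for those 4 and for Dbp (-0.24) and Tef (-0.14). Per2 turned to 0.40 without keto 2 and to 0.39 without chow 3. Cry1 and Per3 kept their sign but not their size: Cry1 was at -0.13 without chow 1 and -2.14 without keto 2, and Per3 at -2.75 without keto 1 and -0.27 without keto 2.

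In the heavy pool alone, 0 of 10 were called in edgeR, DESeq2 and limma-voom, against 0% of all genes in edgeR, with log2 estimates of -2.13 for Cry1 to 0.89 for Tef. Without chow 1 the estimate for Cry1 was 0.05. In the light pool alone, 0 of 10 were called by each tool, against 0% of all genes in edgeR, with log2 estimates of -1.13 for Arntl to 1.26 for Nr1d2 (adjusted p = 0.804). No clock gene in either pool had an unadjusted p under 0.05 in edgeR.

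**Figure D4:**
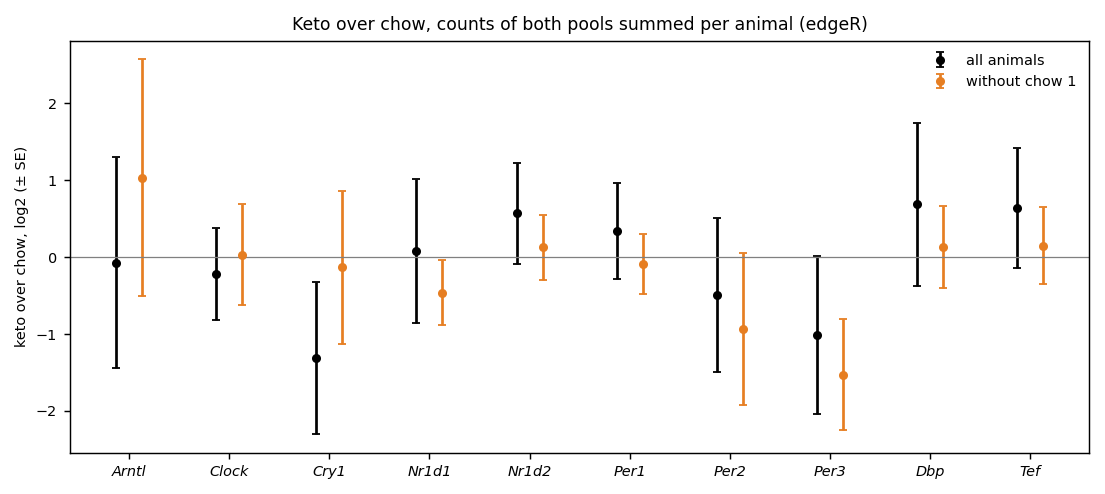
Log2 estimate of keto over chow for each clock gene (vertical axis, point ± standard error from the edgeR fit on counts of both pools summed per animal) with all animals (black) and without chow 1 (orange). With all animals the estimates run from -1.31 for Cry1 to 0.69 for Dbp, and those of Arntl, Clock, Per1 and Nr1d1 lie on the other side of 0 without chow 1.

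The S209A animal is a single liver, so its values were set beside the chow animals with no test. Per2 (4.22 CPM) and Cry1 (0.514 CPM) were the members below every chow animal, and both were past 2-fold under the mean of the chow animals' log2 levels, where 5.89% of all genes met that rule. The 2-fold rests on 1 chow animal for each: the log2 difference of Cry1 was -1.37, or -0.71 without chow 1, and that of Per2 was -1.52, or -0.89 without chow 3. Cry1 had 8 counts in S209A, against 50 in chow 1, 12 in chow 2 and 32 in chow 3. No member was above every chow animal by that rule, which 5.94% of all genes met. Beside chow 3, which shares its header and the wording of its title, S209A had 6.81 against 19.4 CPM of Per1, 4.22 against 32 CPM of Per2, 4.45 against 10.2 CPM of Dbp, 12.7 against 7.38 CPM of Nr1d1 and 2.39 against 0.452 CPM of Arntl. Nr1d2 went the other way from Nr1d1, at 3.83 against 6.94 CPM. The rest were Per3 (2.16 against 12.8 CPM), Tef (11.1 against 18.9), Cry1 (0.514 against 1.22) and Clock (4.47 against 3.31).

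How far each clock message lay in heavy rather than light polysomes was read as heavy over light within a liver. Over all 6 animals, 0 of 10 were called in edgeR, DESeq2 and limma-voom, with 0 of 10 at an unadjusted p under 0.05 in edgeR and 1 in DESeq2, where 0.0284% of all genes were called in edgeR. The median log2 ratio of the members was -0.05, against -0.01 for all genes. Per2 had the highest ratio, 0.51 with a 95% interval of -0.09 to 1.12, and was heavier in 4 of 6 animals. Cry1 had the lowest, -1.47 with an interval of -3.06 to 0.13, and was heavier in 1 of 6. Dbp was at -0.48 (-1.18 to 0.21) and heavier in 1 of 6, and Per1 at 0.26 (-0.31 to 0.83) and heavier in 5 of 6. The 1 animal in which Dbp was heavier was chow 1, with 2 counts in its heavy and 0 in its light library.

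The remaining members lay within 0.5 on the log2 scale of 0, with Arntl at -0.42, Per3 at -0.41, Nr1d2 at -0.07, Tef at -0.03, Clock at 0.01 and Nr1d1 at 0.06. No member was heavier or lighter in all 6 animals, which 1.5% and 1.49% of all genes were. For Dbp this rests on the 2 counts of chow 1. In the keto animals alone, 0 of 10 were called against 0.18% of all genes, with ratios of -1.47 for Cry1 to 0.75 for Arntl, where only keto 2 had counts. In the chow animals alone, 0 of 10 were called against 0.227%, with ratios of -1.10 for Arntl to 0.44 for Per2. The difference of the ratios, keto minus chow, was called for 0 of 10 against 0.189%, and ran from -1.45 for Nr1d2 (interval -3.19 to 0.30) to 1.85 for Arntl (-2.51 to 6.21). In these 3 comparisons no member had an unadjusted p under 0.05 in edgeR, DESeq2 or limma-voom.

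**Figure D5:**
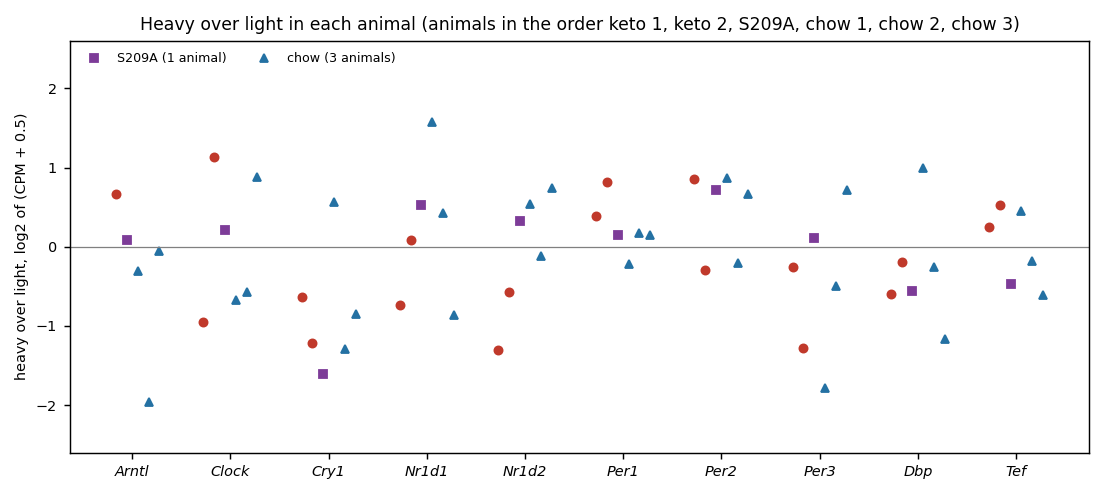
Heavy over light as the log2 ratio of CPM + 0.5 (vertical axis) for each clock gene and animal (horizontal axis); circles are keto, the square S209A and triangles chow. Arntl has no point for keto 1, where both counts were 0; Cry1 lies above 0 in 1 animal (chow 1), and each gene has animals on both sides of 0.

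The wider clock network was read from further named lists. Of 9 other core loop genes, 7 were tested and 2 were called among the chow animals, where 5.11% of all genes were, with a median log2 span of 1.31 against 1.15 for all genes. Nfil3, a repressor that competes with DBP at the D-box, had 5.07 CPM in keto 1, 3.57 in keto 2, 2.21 in S209A, 14.6 in chow 1, 0.721 in chow 2 and 1.27 in chow 3, so chow 1 was its highest animal (span 4.28, adjusted p = 0.000433). Ciart, a repressor of CLOCK and ARNTL, had 4.01 CPM in keto 1, 0.193 in keto 2, 1.95 in S209A, 0.497 in chow 1, 5.48 in chow 2 and 6.69 in chow 3 (span 3.95, adjusted p = 0.049). Hlf, the third PAR bZIP factor, spanned 1.72 (adjusted p = 0.517), and Cry2 spanned 1.31 (adjusted p = 0.649).

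Of 15 clock kinases, ligases and cofactors, 1 was called among the chow animals, Usp2, a deubiquitinase, a share near the 5.11% of all genes called, and the median span was 0.91 against 1.15 for all genes. Usp2 had 12.4 CPM in keto 1, 1.09 in keto 2, 2.52 in S209A, 0 in chow 1, 8.16 in chow 2 and 10 in chow 3. It was at least 12.9-fold higher in chow 2 than in chow 1. Of 18 liver genes known to follow the clock, 7 were called, where 5.11% of all genes were, with a median span of 2.09. Rgs16, a regulator of G protein signalling, had 11.4 CPM in keto 1, 4.11 in keto 2, 3.55 in S209A, 0 in chow 1, 9.11 in chow 2 and 10.8 in chow 3, at least 14.4-fold higher in chow 2 than in chow 1. At these bounds Usp2 and Rgs16 stay above the medians of their lists.

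Elovl3, a fatty acid elongase, ran the other way, with 2.69 CPM in keto 1, 6.59 in keto 2, 11 in S209A, 40.8 in chow 1, 3.03 in chow 2 and 0.53 in chow 3 (span 6.34, adjusted p = 4.44e-07). Avpr1a, a vasopressin receptor, was likewise highest in chow 1 (7.8 CPM) and lowest in chow 3 (0.447 CPM). Gys2, the liver glycogen synthase (span 3.67), Por, the electron donor of cytochromes P450 (2.84), Lpin1, a phosphatidate phosphatase (2.68), and Alas1, the first enzyme of haem synthesis (2.12), were the other called genes, each with chow 1 as the lowest chow animal. With chow 1 left out, 0 of the 7 core loop genes, 0 of the 15 kinases, ligases and cofactors and 1 of the 18 output genes (Insig2) were called, where 3.52% of all genes were. Between chow 1 and chow 2, which share their header, 1 (Nfil3), 1 (Usp2) and 5 (Rgs16, Lpin1, Elovl3, Por and Gys2) were called, where 1.08% of all genes were. No gene of these lists was called for keto over chow in either pool or in both, with 0% of all genes called in each.

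Genes that respond to glucocorticoids, which follow both the clock and stress, were read beside them. Of 12 tested, 2 were called among the chow animals, where 5.11% of all genes were, with a median span of 1.32. Fkbp5, a chaperone induced by glucocorticoids, had 30.9 CPM in keto 1, 16.2 in keto 2, 16 in S209A, 3.27 in chow 1, 28 in chow 2 and 32.5 in chow 3 (span 3.25, adjusted p = 0.000274). Klf9, also induced by them, had 30.4 CPM in keto 1, 43 in keto 2, 21 in S209A, 7.09 in chow 1, 27.8 in chow 2 and 16.4 in chow 3 (span 1.98, adjusted p = 0.023). Chow 1 was the lowest of the 6 animals for 7 of the 12, against 20.7% of all genes. Without chow 1, 0 of the 12 were called (1 at an unadjusted p under 0.05), where 3.52% of all genes were, and without chow 2, Klf9 was not called.

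Of 9 temperature-responsive genes, 3 were called among the chow animals (Rbm3, Hsp90aa1 and Srsf5), where 5.11% of all genes were, with a median span of 1.57. Rbm3, a cold-induced RNA-binding protein, had 2.67 CPM in keto 1, 1.08 in keto 2, 17.5 in S209A, 1.04 in chow 1, 0.0719 in chow 2 and 13.8 in chow 3. It was high in the 2 animals whose files name HISAT2, and the part of the processing in this was not tested. Hsp90aa1 and Srsf5 were highest among the chow animals in chow 3, at 119 and 57.7 CPM, and without chow 3 none of the 9 was called (0 in edgeR, with 1 at an unadjusted p under 0.05), where 1.08% of all genes were. S209A, whose files also name HISAT2, came next with 64.4 CPM of Hsp90aa1 and 47.7 of Srsf5. The remaining animals had 12.7 to 41.2 CPM of Hsp90aa1 and 15.1 to 19.7 of Srsf5. For these genes too the part of the processing was not tested.

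Genes were ranked by Pearson correlation of their log2 levels with those of a clock gene, a measure that leaves out the size of the change. The ranking is a description over 6 animals of mixed diet, genotype and processing. Of 2883 genes ranked against Dbp, the 5 highest were Mt1 (0.998), Acot2 (0.989), Tef (0.987), Sdf4 (0.987) and Pim3 (0.984). Their swings differed in size: Mt1 ran from 12.7 to 22.3 CPM and Acot2 from 0.546 to 29.2, where Dbp ran from 0.248 to 20.5. Among the members, Nr1d2 (0.993), Tef (0.987), Per1 (0.931), Nr1d1 (0.864) and Per3 (0.805) followed Dbp most closely, and Cry1 (-0.819) and Arntl (-0.765) ran opposite to it. Nr1d2 was not in the ranking because its mean of 44.1 counts per library was under the 50 required. Of 2884 genes ranked against Arntl, the 5 highest were Clpx (0.981), Ice1 (0.965), Gls2 (0.959), Trip4 (0.95) and Rgn (0.938). Trip4 ran only from 7.14 to 9.63 CPM and Clpx from 7.78 to 40.7, where Arntl ran from 0 to 3.4. Per1 (-0.872), Per2 (-0.869), Per3 (-0.842), Tef (-0.813) and Nr1d2 (-0.766) ran opposite to Arntl, and Clock (0.778) went with it. The weakest values against Arntl were those of Nr1d1 (-0.443) and Cry1 (0.535).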

How the data were processed

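The deposited values are raw read counts per Entrez gene identifier, 1 column per library, made by the authors, with Trimmomatic, HISAT2, StringTie and the mm10 build listed in the submitters' processing notes. Per the file headers, chow 1 and chow 2 were aligned with Bowtie2, and S209A and chow 3 with HISAT2. No source used here names the program or strand setting behind the counts. Per the labels' protocols, fractions of a sucrose gradient were combined into 2 pools per liver, and 10 ng of RNA per library was amplified with a kit that keeps strand. Names came from the RefSeq table of GRCm38.p6, which matched 25275 of 27179 identifiers; 1904 had no match.

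Genes with enough counts by filterByExpr (minimum 10, groups by condition) were kept, 10555 in all, and scaled by TMM. Levels are TMM-scaled CPM computed from the deposited counts, as the mean of both pools. Differences were tested with edgeR 4.0.16's quasi-likelihood test (R 4.3.3, limma 3.58.1, DESeq2 1.42.0 as an alternative) and Benjamini-Hochberg adjustment over all genes, called at 0.05. Heavy over light had the animal as a block, since both pools came from 1 liver. Keto over chow used summed counts of both pools, with S209A in the fit. The labels number the animals and say no more of how they were drawn. For keto over chow, p-values are set against the spread of levels between these livers. For heavy over light and the tests within a diet, they are set against how the heavy and light difference varies between these livers. Log2 levels use a pseudocount of 0.5 CPM, the bound for a count of 0 is 3 counts per library, and 95% intervals of log2 values are normal approximations from the standard error. No 2 libraries held identical values. The fits of heavy over light in all animals and in chow, and of keto over chow, were tried on simulated counts. Heavy over light in keto, keto minus chow, and the tests among the chow animals and between the keto animals were not simulated. The members, lists and rule for named genes were chosen with earlier results of these data known. The rule names all 10 members with every value, and, from the other lists, the genes called and up to 3 with the largest log2 value at a mean of at least 5 CPM, plus the 5 genes most like Arntl and Dbp at a mean of at least 50 counts. The tests among the chow animals and between the keto animals were added after the data had been seen. Alternatives were other scalings, filters and tools, each animal left out, and blocks by number and title.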

Additional observations from a re-analysis of the deposited data

How the results depend on the processing

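Limits come first: 2 keto livers against 3 chow livers, 1 S209A liver, few counts for Arntl and Cry1, no hour of collection, and processing that differs with diet. The clock genes called for keto over chow or heavy over light were 0 of those tested under every alternative run (10 tested, or 6 with a filter at a mean of 50 counts). Among the chow animals the number of clock genes called ran from 0 (without chow 1) to 6, and between the keto animals it was 1, or 0 with limma-voom and 0 with a filter at a mean of 50 counts. Counts over all genes moved more. Heavy over light in 6 animals called 3 genes, against 1 with TMM over nuclear protein-coding genes, 9 with DESeq2, 0 with the filter at 50, 15 with no filter and 0 to 19 with an animal left out. In chow it called 24, against 15 with DESeq2, 0 with the filter at 50, 11 with no filter and 4 to 402 with an animal left out, the highest without chow 3. In keto it called 19, against 0 with DESeq2, 7 with limma-voom, 0 with the filter at 50 and 7 to 33 with an animal left out. Keto minus chow called 20, against 6 with DESeq2, 0 with the filter at 50 and 0 to 211 with an animal left out, the highest again without chow 3. Keto over chow in both pools called 0, against 16 with DESeq2 and 122 with no filter. In the heavy pool it called 0, against 39 with DESeq2, 4 with limma-voom, 112 with no filter, 126 with the title wording as a batch and 0 to 108 with an animal left out (108 without chow 3), and in the light pool 0, against 39 with no filter. Among the chow animals 539 were called, against 347 with the filter at 50 and 114 to 530 with an animal left out, and between the keto animals 2, against 0 with the filter at 50 and 10 with no filter. The cause of these moves was not tested. Without the replicate block for the liver, heavy over light called 0 genes in 6 animals, 0 in chow, 0 in keto and 0 for keto minus chow, and Nr1d1 was at -0.01; limma-voom put it at -0.02. Deviations of same-numbered libraries across diets correlated at -0.0788 to 0.0484. Those of the heavy and light library of 1 liver correlated at 0.334 to 0.487 in chow but only 0.0678 in keto. Since libraries of 1 keto liver were hardly alike by this measure, it cannot decide whether the numbers pair animals. With number as a replicate block, keto over chow called 4 genes in both pools, 83 in the heavy and 5 in the light pool, none a clock gene, but the estimates in both pools moved to 1.86 for Dbp (unadjusted p = 0.0402 and adjusted p = 0.601 in edgeR), 1.25 for Tef, 1.17 for Nr1d1, 1.17 for Nr1d2, 1.05 for Per1, -0.03 for Per3, -0.25 for Per2, -0.69 for Clock and -1.33 for Arntl. limma-voom put Arntl at -1.73, Dbp at 1.41 and Nr1d1 at 0.76. Per2 was at 0.39 with the title wording as a batch. With an animal left out, heavy over light in 6 animals ran from -0.74 to 0.09 for Arntl, -0.22 to 0.21 for Clock, -0.12 to 0.31 for Nr1d1, -0.28 to 0.21 for Nr1d2 and -0.14 to 0.09 for Tef. Keto over chow in both pools ran from -7.68 to 1.03 for Arntl, -1.19 to 0.38 for Clock, -0.11 to 0.81 for Per1, -3.45 to 0.40 for Per2, -2.75 to -0.27 for Per3, -2.14 to -0.13 for Cry1, -0.46 to 0.92 for Nr1d1, 0.13 to 0.89 for Nr1d2, -0.24 to 1.38 for Dbp and -0.14 to 1.36 for Tef. In the heavy pool Cry1 ran from -2.88 to 0.05 and in the light pool Arntl from -6.98 to 0.03. The lowest Arntl values leave keto 1, with 0 counts, as the only keto animal, so their size depends on the prior count.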
